A study of Mus musculus with 23 samples.

Results

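The 34 genes described here encode the glucose and lactate transporters and the enzymes of glycolysis and of the pentose phosphate pathway. They were chosen by name rather than by any measured value, but with earlier results of these data known. All 34 symbols were found in both deposited tables of normalized counts, among 35455 genes in the table of BRAF V600E and BRAF V600E/PI3Kα H1047R tumors and 35454 in the PGC1α table. The RNA came from tdTomato+ cells sorted out of mouse lungs, from animals of mixed background, 1 animal for each of the 23 libraries. All tumors carried *Braf* CAT (genotype CAT/+), an allele in which CRE switches on BRAF V600E together with tdTomato from the endogenous *Braf* promoter, and all were initiated with an adenovirus whose CRE is driven by the *Sftpc* promoter, which limits initiation to alveolar type 2 (AT2) cells. BRAF tumors (CAT/+) gave 1, 3 and 2 libraries at 2, 6 and 12 weeks post-initiation (p.i.). BRAF/PI3K tumors (CAT/+; HR/+), which also carried *Pik3ca* H1047R, gave 2, 4 and 2 libraries at the same times. At 12 weeks p.i. 5 libraries came from PGC1α Het tumors (CAT/+; PGC1a mutant/+) and 4 from PGC1α Null tumors (CAT/+; PGC1a mutant/mutant), in which CRE removes 1 or both copies of functional *Ppargc1a*. Mice taken at 12 weeks had received less virus than those taken at 2 and 6 weeks, so time and virus titer cannot be told apart.

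Glycolysis splits glucose into pyruvate in the cytosol. Glucose enters through facilitative transporters, hexokinase traps it as glucose 6-phosphate, phosphofructokinase commits it to breakdown, and the lower steps from glyceraldehyde 3-phosphate to pyruvate return ATP. Pyruvate is reduced to lactate by lactate dehydrogenase and leaves through monocarboxylate transporters, while the pentose phosphate pathway diverts glucose 6-phosphate to NADPH and ribose 5-phosphate. AT2 cells need NADPH and glycerol phosphate for the lipids of surfactant, and PI3K signaling and the HIF1 and MYC transcription factors are textbook activators of glycolytic genes.

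HIF1 binds DNA at the core ACGTG or GCGTG, and MYC at the E-box CACGTG, so the stretches before the start of 5 of the genes are printed with these letters marked. The sequences are the 150 bases before the RefSeq start in GRCm38.p6, read 5′ to 3′ along the gene, and capitals mark ACGTG or GCGTG on either strand (on the other strand CACGT or CACGC, with overlapping matches joined). For *Ldha* the stretch before the first of 2 listed starts is shown. *Ldha* and *Ldhb*, the 2 subunits of lactate dehydrogenase, are shown because their balance varied between libraries. *Pgk1*, *Pgam1* and *Hk2* are among the 8 genes higher at 12 than at 6 weeks with an unadjusted p-value under 0.05 (limma). None of these 8 had an adjusted p-value under 0.05. The examples were picked for holding a match. Of the same 8, *Aldoa*, *Eno1*, *Pkm* and *Pgd* each had at least 1 listed start whose 150 bases held none. They lie at chr7:46845654-46845803 (plus strand, *Ldha*), chr6:142507958-142508107 (minus, *Ldhb*), chrX:106186950-106187099 (plus, *Pgk1*), chr19:41911721-41911870 (plus, *Pgam1*) and chr6:82774455-82774604 (minus, *Hk2*).
Ldha: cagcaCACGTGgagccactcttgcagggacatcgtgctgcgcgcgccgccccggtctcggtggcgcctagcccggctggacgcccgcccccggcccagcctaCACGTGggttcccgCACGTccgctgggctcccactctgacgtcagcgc
Ldhb: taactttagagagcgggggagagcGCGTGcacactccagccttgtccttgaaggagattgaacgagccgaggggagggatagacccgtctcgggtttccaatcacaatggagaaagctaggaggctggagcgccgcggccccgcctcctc
Pgk1: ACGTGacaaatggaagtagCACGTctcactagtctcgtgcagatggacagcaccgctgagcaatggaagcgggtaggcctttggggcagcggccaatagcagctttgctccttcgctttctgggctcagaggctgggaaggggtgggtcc
Pgam1: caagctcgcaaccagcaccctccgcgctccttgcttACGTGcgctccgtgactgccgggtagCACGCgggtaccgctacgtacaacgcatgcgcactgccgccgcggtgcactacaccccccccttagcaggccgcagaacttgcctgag
Hk2: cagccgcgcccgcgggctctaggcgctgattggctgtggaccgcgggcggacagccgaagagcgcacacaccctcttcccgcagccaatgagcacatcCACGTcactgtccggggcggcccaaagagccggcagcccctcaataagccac

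*Ldha* held 2 full CACGTG boxes in this stretch, and *Ldhb* held none. Promoters (250 bases before to 50 after a start) were listed for 33 of the 34 genes, with 51 starts, and not for *Slc2a3*. ACGTG occurred in 21 of these 51 promoters (41.2%) against 19.6% of all 32851 promoters of the table, and GCGTG in 29 (56.9%) against 32.4%. CACGTG, which contains ACGTG, occurred in 5 (9.80%) against 7.15%. The 51 starts are not all separate, as stretches before starts of *Eno1* and of *Aldoa* overlap. The background was all promoters, not ones matched for base content. Whether these shares are particular to the 33 genes was therefore not tested. A match is a run of letters and was not tested as a binding site.

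Each library's normalized counts summed to between 16433820 and 20287296 in the BRAF and BRAF/PI3K table and between 7115753 and 9159567 in the PGC1α table, which was normalized separately, so values are not compared between tables. Sequencing depth is unknown. All 10 AT2 markers examined were present in every library, but their summed normalized count ran from 56181 and 114040 in the 2 BRAF/PI3K libraries at 2 weeks, and 227190 in BRAF/PI3K replicate 1 at 6 weeks, to 1248500 in a BRAF library at 12 weeks. The same 3 BRAF/PI3K libraries held the most of 10 endothelial markers, with sums of 58730, 59998 and 84493 against 6271 to 41348 in the other 11. At 12 weeks the BRAF/PI3K library labelled male (replicate 1) had 502 normalized counts of the Y-linked *Kdm5d* and the one labelled female had 4728. Of the 9 of 10 macrophage markers found in the table, replicate 1 had the highest value for 5, among them *Cd68* (1439 against at most 510), *Adgre1* (723 against 132) and *Fcgr3* (303 against 64.2). It was not highest for *Mrc1*, *Csf1r* and *Itgax* and was the lowest library for *Lyz1* (332 against up to 25490). Its sum over the 9 was 5521 against 1529 to 27320 in the other libraries, and over the 8 without *Lyz1* it was the highest, 5189 against 738 to 3652. In RNA from sorted populations, fewer cells of a type and less RNA per cell cannot be told apart.

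All 34 genes had a mean normalized count of at least 10 in both tables and were tested, *Hk3* in the BRAF and BRAF/PI3K table through 1 library alone. Per kb of exon, *Ldha* had the highest level in that table, with a median of 2480 normalized counts per kb over the 14 libraries (range 669 to 4212), followed by *Gapdh* (1103), *Aldoa* (909) and *Pgam1* (743). The ranges of these 4 overlapped. In the PGC1α table *Gapdh* (997) and *Ldha* (996) led. The least variable genes were *Rpia* and *Rpe*, which handle ribose and ribulose 5-phosphate, with SDs of 0.22 and 0.25 on the log2 scale over 14 libraries. *Hk3* (SD 2.50), *Slc16a3* (1.65) and *Aldoc* (1.46) varied most, all with low median levels per kb (0.645, 5.67 and 13.5).

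**Figure D1:**
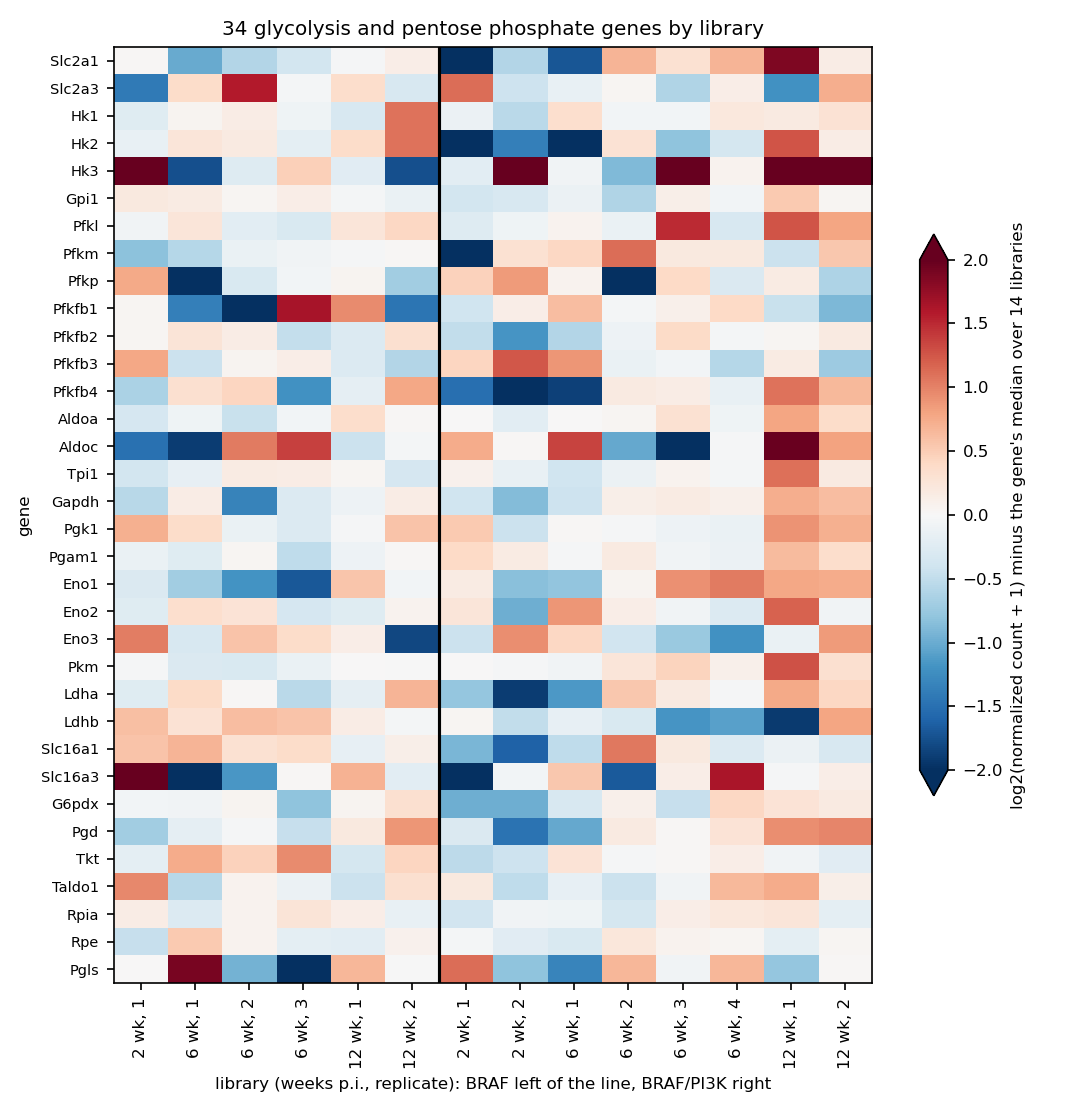
Values of the 34 genes (rows) in 14 libraries (columns, weeks p.i. and replicate; 6 BRAF left of the line, 8 BRAF/PI3K right), as log2(normalized count + 1) minus the gene's median, with colors ending at 2 in either direction. BRAF/PI3K replicate 1 at 12 weeks was high for *Slc2a1*, *Hk3*, *Tpi1* and *Pkm*, and *Hk2*, *Pfkfb4* and *Ldha* were low in both BRAF/PI3K libraries at 2 weeks and in replicate 1 at 6 weeks.

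The first comparison asked how PI3Kα H1047R altered the tumors, with all weeks together. The lower glycolytic enzymes *Pgam1*, *Eno1* and *Pkm* had higher values in BRAF/PI3K tumors, and *Ldhb* had lower ones. These 4 were singled out by an unadjusted p-value under 0.05 (limma) alone. The *Eno1* difference was smaller once rows for genes of similar sequence were added, as given below. None of the 34 genes passed an adjusted p-value of 0.05 in limma (two-sided, Benjamini-Hochberg over 17558 genes), where 0.0228% of all genes did. Before adjustment 4 had a p-value under 0.05, which is 11.8% of the 34 against 6.83% of all genes tested, namely *Pgam1*, *Eno1* and *Pkm* with higher values (3.46% of all genes) and *Ldhb* with lower ones (3.38%). The lowest adjusted p-value of the 34 was 0.627, for *Ldhb*. Values were higher in BRAF/PI3K tumors for 18 of the 34, with a median log2 difference of 0.01, as for 51.8% of all genes. By role, 5 of the 7 lower glycolytic genes were higher (median 0.33) and 0 of the 4 lactate dehydrogenase and lactate transport genes (median -0.47). With weeks pooled all 10 AT2 markers (median -0.94), all 8 cycling genes (median -0.45), all 8 lymphocyte markers (median -0.58) and all 7 erythroid and platelet markers tested (median -0.89) were lower in BRAF/PI3K libraries, and all 10 endothelial (median 0.88) and all 8 AT1 markers (median 0.38) higher, none with an adjusted p-value under 0.05, and their part was not tested. BRAF libraries were labelled 5 female and 1 male and BRAF/PI3K libraries 3 female and 5 male, and with labelled sex as a factor the count of 4 was 1. For none of the 34 did the 2 genotypes fail to overlap (0.211% of all genes). The count of 4 depended on single libraries: it was 1 without BRAF/PI3K replicate 2 at 12 weeks, BRAF replicate 1 at 6 weeks or BRAF replicate 3 at 6 weeks, and 2 without BRAF/PI3K replicate 1 at 12 weeks, BRAF/PI3K replicate 2 or 3 at 6 weeks, the BRAF library at 2 weeks or BRAF replicate 2 at 6 weeks. Without the 3 libraries highest in endothelial markers it was 5.

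**Figure D2:**
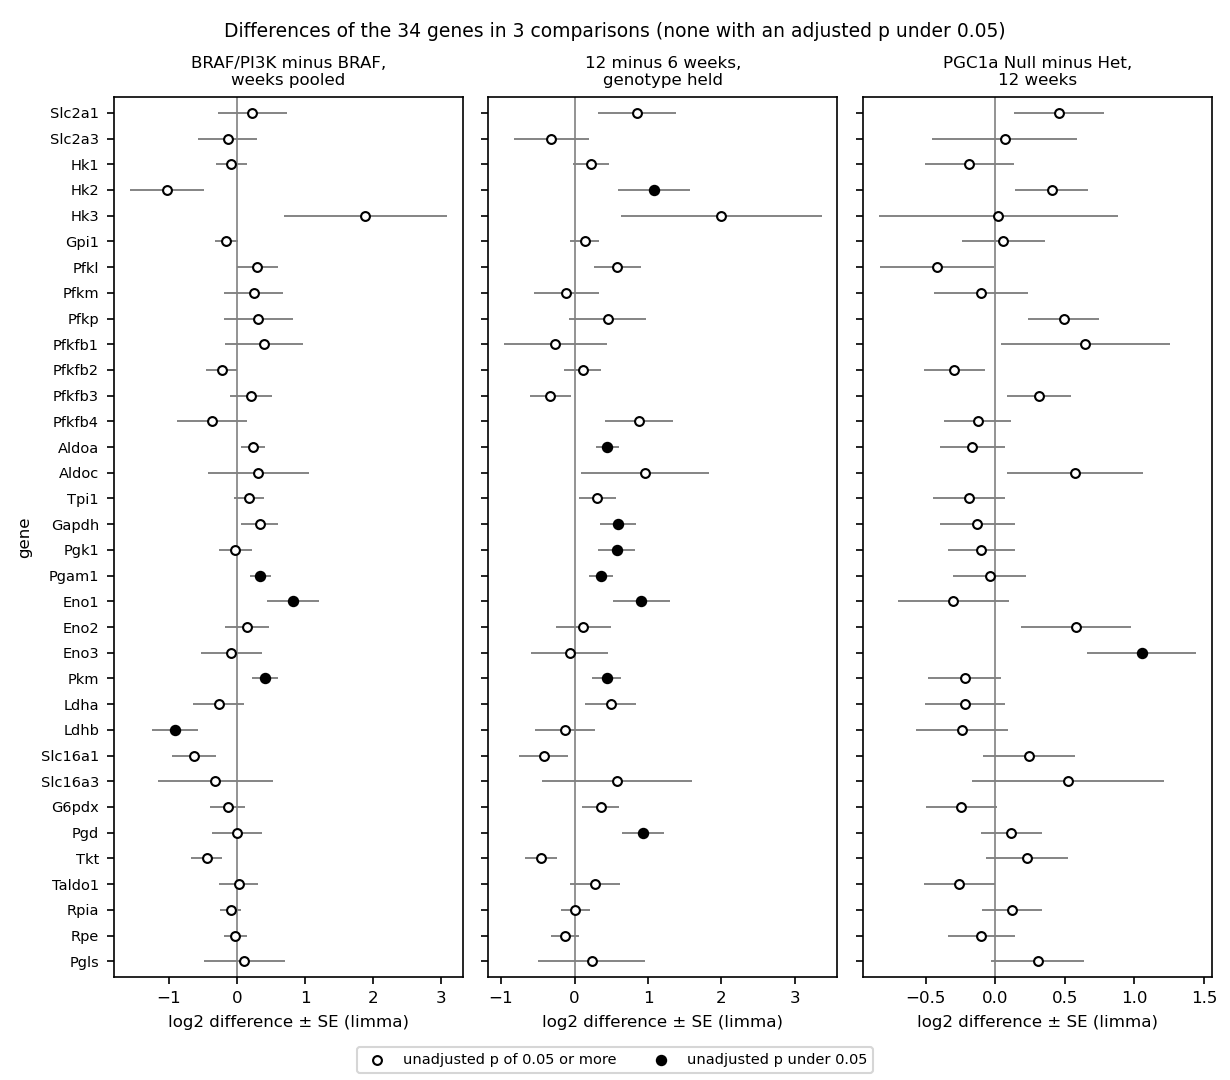
Log2 difference ± SE (limma) of the 34 genes (rows) for BRAF/PI3K minus BRAF with weeks pooled (8 and 6 libraries), 12 minus 6 weeks with genotype held (4 and 7) and PGC1α Null minus Het (4 and 5), filled where the unadjusted p-value was under 0.05. There are 4 filled points in the left panel, 8 in the middle, all above 0, and 1 (*Eno3*) in the right, and none had an adjusted p-value under 0.05.

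Within weeks the genotypes were compared in a fit that gave every group its own mean. At 2 weeks there was 1 BRAF library, so the test takes its spread from the other groups and assumes that this library varies like them. The BRAF library was labelled female and both BRAF/PI3K libraries male, so at that time sex and genotype cannot be told apart. At 2 weeks 9 of the 34 genes had higher values in the BRAF/PI3K libraries (50.4% of all genes) and 25 lower. None passed the adjusted test (0.0171% of all genes did), and 3 had an unadjusted p-value under 0.05, *Hk2*, *Slc16a1* and *Slc16a3*, all with lower values, which is 8.82% against 13.5% of all genes in either direction and 6.57% in this one. The 3 became 5 without either BRAF/PI3K library. All 10 AT2 markers were lower and all 10 endothelial markers higher in the BRAF/PI3K libraries (median log2 differences of -2.55 and 2.95). Fibroblast (8 of 8, median 0.975), macrophage (8 of 9, median 2.18), AT1 (7 of 8, median 0.655) and club cell markers (3 of 4, median 1.24) were also higher. Of the erythroid and platelet markers 5 of 7 were lower (median -0.234). The part of all these markers in the glycolytic values was not tested. At 6 weeks 19 of the 34 had higher values in BRAF/PI3K tumors (50.5% of all genes), none passed (0.0228% of all genes did), and *Eno1*, *Ldhb* and *Tkt* had an unadjusted p-value under 0.05 (8.82% against 4.24%), a count that was 1 without BRAF/PI3K replicate 3 or 4. At 12 weeks 24 of the 34 had higher values (50.5% of all genes), none passed (0.0114% of all genes did), and *Hk3* and *Pkm* had an unadjusted p-value under 0.05 (5.88% against 3.76%). *Hk3* entered the test only through the high value of BRAF/PI3K replicate 1, so its p-value is no evidence and *Pkm* alone remains. The count was 0 without BRAF/PI3K replicate 1, 1 without BRAF replicate 2 and 4 without BRAF/PI3K replicate 2. With 2 libraries a side at 12 weeks, both BRAF/PI3K values lay above both BRAF values for 13 of the 34, *Hk3* among them (38.2% against 15.4% of all genes, or 12 of 33 and 36.4% without *Hk3*) and below for 0 (13.8%). Marker lists also differed between the genotypes at these times, none with an adjusted p-value under 0.05. At 6 weeks 9 of 10 AT2 markers (median -0.43), 7 of 8 cycling genes (median -0.49) and 7 of 7 erythroid and platelet markers (median -1.10) were lower in BRAF/PI3K libraries, and 8 of 8 AT1 (median 0.27) and 9 of 10 endothelial markers (median 0.25) higher. At 12 weeks 4 of 4 club cell (median -1.52), 7 of 7 erythroid and platelet (median -1.42) and 7 of 8 lymphocyte markers (median -0.83) were lower, and 7 of 9 macrophage (median 0.60) and 7 of 10 endothelial markers (median 0.21) higher. Their part was not tested. The PI3Kα effect did not differ between 12 and 6 weeks for any of the 34 at an adjusted p-value under 0.05, nor for any of the 17558 genes (limma, 0% of genes, 504 or 2.87% at an unadjusted p-value under 0.05 and 0 of the 34), and for 26 of the 34 it was higher at 12 weeks (50.8% of all genes). That 0 became 1, 2 or 3 in 7 of the fits that left out 1 library, the most without BRAF/PI3K replicate 2 at 12 weeks.

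The next question was how the genes varied as tumors grew. Between 6 and 12 weeks, with genotype held, 25 of the 34 genes had higher values at 12 weeks, with a median log2 difference of 0.33 (49.6% of all genes, median 0.00). Among them were 6 of the 7 lower glycolytic genes. *Gapdh*, *Pgk1*, *Pgam1*, *Eno1* and *Pkm* of these, together with *Hk2*, *Aldoa* and *Pgd*, had an unadjusted p-value under 0.05, and these 8 are 23.5% of the 34 against 2.3% of all genes in the same direction and 5.31% in either. None passed the adjusted test (lowest adjusted p = 0.861, limma), and neither did any of the 17558 genes (0%, with 933 at an unadjusted p-value under 0.05). For none of the 34 did the 2 times fail to overlap (0.718% of all genes). The 8 became 2 without BRAF/PI3K replicate 1 at 12 weeks and 0 without both BRAF/PI3K libraries at 12 weeks. It was 3 without BRAF/PI3K replicate 1 or BRAF replicate 2 at 6 weeks, 4 without BRAF replicate 2 at 12 weeks or BRAF replicate 3 at 6 weeks, and 5 without BRAF/PI3K replicate 2 at 12 weeks or at 2 weeks, BRAF/PI3K replicate 4 at 6 weeks or BRAF replicate 1 at 6 weeks. Over the same interval all 10 AT2 markers had higher values (median 0.58) and 8 of 10 endothelial markers lower ones (median -0.79), none of either list with an unadjusted p-value under 0.05. Of the other lists, 7 of 9 macrophage markers were higher (3 with an unadjusted p-value under 0.05, median 0.87), and 6 of 8 fibroblast markers (4 under 0.05, median -0.64), 7 of 8 AT1 markers (3 under 0.05, median -0.56) and 4 of 4 club cell markers (2 under 0.05, median -1.01) were lower, none with an adjusted p-value under 0.05. The part of these markers was not tested. Without the 3 libraries highest in endothelial markers, 6 of the 34 had an unadjusted p-value under 0.05.

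From 2 to 6 weeks, 22 of the 34 had higher values (51.4% of all genes, median log2 difference 0.14) and none passed the adjusted test (0.0513% of all genes did, lowest adjusted p of the 34 0.281, limma). Before adjustment 7 had a p-value under 0.05, which is 20.6% against 11.9% of all genes. Of these *Pfkm*, *Pfkfb4*, *Ldha*, *Slc16a1* and *Tkt* were higher at 6 weeks (6.58% of all genes) and *Pfkp* and *Pfkfb3* lower (5.35%). The count was 2 without BRAF/PI3K replicate 2 at 6 weeks, 3 without BRAF/PI3K replicate 2 at 2 weeks and 4 without BRAF/PI3K replicate 1 at 2 weeks, BRAF/PI3K replicate 3 at 6 weeks or BRAF replicate 1 at 6 weeks. Values did not overlap between the times for *Hk1* and *Tkt*, higher at 6 weeks, and *Pfkp*, lower (8.82% of the 34 against 3.09% of all genes). Over the same interval all 10 AT2 markers had higher values (9 with an unadjusted p-value under 0.05, median log2 difference 1.65). Of the AT1 markers 7 of 8 were lower (6 under 0.05, median -1.04), and all 8 cycling genes were higher (4 under 0.05, median 0.85). Lymphocyte (6 of 8, 3 under 0.05, median 0.90), macrophage (7 of 9, 2 under 0.05, median 0.313) and erythroid and platelet markers (7 of 7, median 0.72) were higher. Fibroblast markers were lower (7 of 8, 2 under 0.05, median -0.92). None of these markers had an adjusted p-value under 0.05, and their part was not tested.

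Of the glucose transporters, *Slc2a1* (GLUT1) and *Slc2a3* (GLUT3), *Slc2a1* spanned the widest range. In BRAF tumors it had 486 normalized counts at 2 weeks, 239, 318 and 371 at 6 weeks and 474 and 526.5 at 12 weeks. In BRAF/PI3K tumors it had 116 and 319 at 2 weeks, 146, 765, 594 and 770 at 6 weeks, and 1753 and 532 at 12 weeks. The highest and the lowest library were thus both BRAF/PI3K, and the 3 values under 400 there came from the libraries highest in endothelial markers. *Slc2a3* ran from 65.6 to 535 with no difference between genotypes past its spread (log2 difference -0.14 ± 0.43, SE).

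Of the hexokinases, *Hk2*, the inducible isoform, had 471 normalized counts in BRAF tumors at 2 weeks, 616, 592 and 458 at 6 weeks and 678 and 1115 at 12 weeks. In BRAF/PI3K tumors it had 64.8 and 202 at 2 weeks, 102, 641, 298 and 409 at 6 weeks, and 1253 and 583 at 12 weeks. The 5 BRAF/PI3K values from 64.8 to 409 lay below every BRAF value, while all 4 libraries at 12 weeks lay above the mean at 6 weeks. From 6 to 12 weeks *Hk2* was 1.09 ± 0.49 (SE) higher on the log2 scale (limma adjusted p = 0.901, exact permutation of weeks within genotype p = 0.04), and 0.71 without BRAF/PI3K replicate 1 at 12 weeks. The difference *Hk2* minus *Hk1*, the constitutive isoform, on the log2 scale ran from 0.16 to 0.95 in BRAF libraries and from -2.61 to 1.35 in BRAF/PI3K libraries, of which 6 of 8 lay below all BRAF libraries. *Hk3*, an isoform of myeloid cells, was listed between 0 and 32.8 in 13 libraries and at 644 in BRAF/PI3K replicate 1 at 12 weeks. At that time the other BRAF/PI3K library had 16.1 and the 2 BRAF libraries 1.88 and 0.

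*Gpi1*, which turns glucose 6-phosphate into fructose 6-phosphate, stayed between 803 and 1746 normalized counts in the BRAF and BRAF/PI3K table. Among the phosphofructokinases, *Pfkp*, the platelet-type subunit, had 852, 692 and 907 normalized counts at 2 weeks. At 6 weeks it had 84.7, 408 and 486 in BRAF tumors and 529, 105, 662 and 411 in BRAF/PI3K tumors. At 12 weeks it had 521 and 310 in BRAF and 566 and 327 in BRAF/PI3K tumors. All 7 values at 6 weeks lay below the 3 at 2 weeks, a log2 difference of -1.38 ± 0.58 (SE, limma adjusted p = 0.369, exact permutation of weeks within genotype p = 0.1). *Pfkm*, the muscle-type subunit, had 84.9, 26.4 and 187 at 2 weeks and, at 6 weeks, 102, 138 and 144 in BRAF and 201, 327, 174 and 174 in BRAF/PI3K tumors, 1.20 ± 0.49 higher on the log2 scale (limma adjusted p = 0.363, exact permutation p = 0.05). At 12 weeks *Pfkm* had 148 and 154 in BRAF and 112 and 220 in BRAF/PI3K tumors. Its lowest library was BRAF/PI3K replicate 1 at 2 weeks, and *Pfkl*, the liver-type subunit, was highest in BRAF/PI3K replicate 3 at 6 weeks (1028 against 294 to 878 elsewhere). The balance *Pfkp* minus *Pfkl* on the log2 scale was 1.17 to 1.40 in the 3 libraries at 2 weeks and -2.33 to 0.71 in the 7 at 6 weeks.

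The 4 bifunctional enzymes that make and remove fructose 2,6-bisphosphate, the activator of phosphofructokinase, did not move together. *Pfkfb3*, the isoform with the strongest kinase activity, had 2215, 1732 and 3037 normalized counts at 2 weeks and, at 6 weeks, 957, 1340 and 1414 in BRAF and 2384, 1165, 1230 and 865 in BRAF/PI3K tumors. It was lower at 6 weeks by a log2 difference of -0.82 ± 0.31 (SE, limma adjusted p = 0.317, exact permutation p = 0.0667), with 6 of 7 values below all 3 at 2 weeks. *Pfkfb4* had 293, 160 and 104 at 2 weeks, and 571, 617 and 197 in BRAF and 125, 521, 507 and 412 in BRAF/PI3K tumors at 6 weeks, so that 5 of the 7 exceeded all 3 earlier values (log2 difference 1.10 ± 0.50, SE, limma adjusted p = 0.411, exact permutation p = 0.15). At 12 weeks *Pfkfb3* had 1062 and 858 in BRAF and 1449 and 780 in BRAF/PI3K tumors, and *Pfkfb4* 405 and 782 and 975 and 717, the latter all above the values at 2 weeks. *Pfkfb2* had the highest level per kb of the 4 (median 384 normalized counts per kb) and *Pfkfb1*, the liver isoform, the lowest (10.7).

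**Figure D3:**
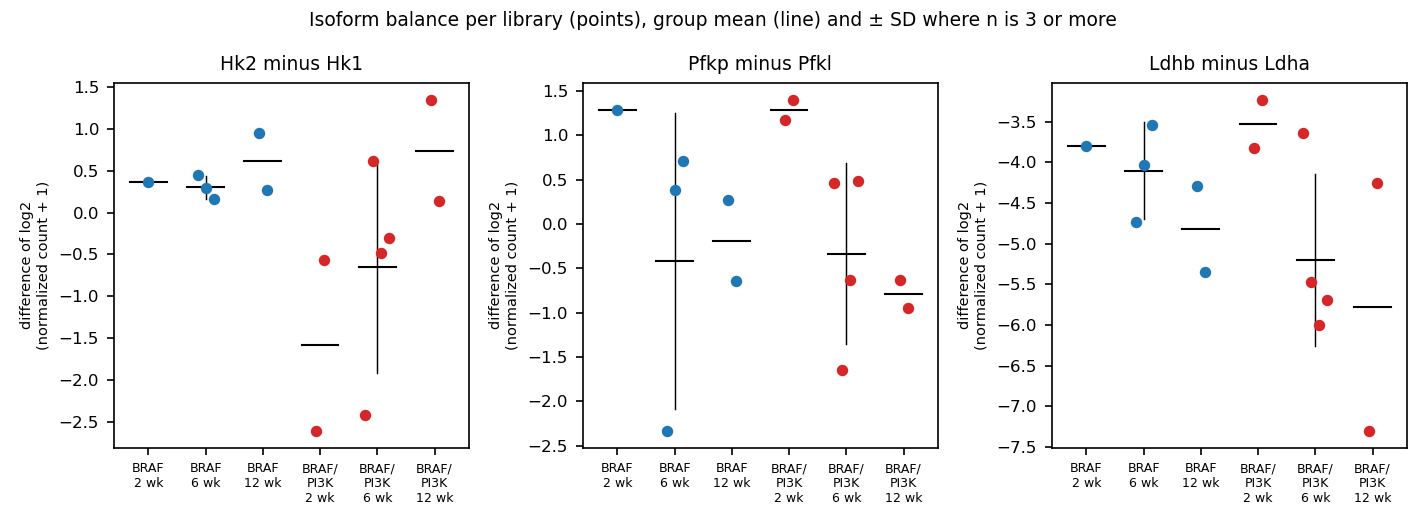
Difference of log2(normalized count + 1) between 2 isoforms in each library (points), by genotype and week (1, 3, 2, 2, 4 and 2 libraries), with the group mean (line) and SD where there are 3 or more libraries. *Hk2* minus *Hk1* was spread widely in BRAF/PI3K tumors (-2.61 to 1.35), *Pfkp* minus *Pfkl* was highest at 2 weeks, and *Ldhb* minus *Ldha* was lowest (-7.31) in BRAF/PI3K replicate 1 at 12 weeks.

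*Aldoa*, the main aldolase, had 2085 normalized counts in the BRAF library and 2641 and 2294 in the BRAF/PI3K libraries at 2 weeks. It had 2511, 1943 and 2559 normalized counts in BRAF and 2652, 2711, 3258 and 2500 in BRAF/PI3K tumors at 6 weeks, and 3361, 2708, 4564 and 3416 at 12 weeks. All 4 values at 12 weeks lay above the mean at 6 weeks and 3 above every value at 6 weeks, a log2 difference of 0.45 ± 0.16 (SE, limma adjusted p = 0.901). The exact permutation of weeks within genotype gave p = 0.00667, the smallest its 150 arrangements allow. *Tpi1*, triose phosphate isomerase, was between 236 and 352 in 13 libraries and at 670 in BRAF/PI3K replicate 1 at 12 weeks. *Aldoc* ran from 3.72 to 177, with both BRAF/PI3K values above BRAF at 2 weeks (74.4 and 44.8 against 15.02) and at 12 weeks (177 and 78.0 against 32.5 and 43.0) and overlap at 6 weeks.

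The lower steps begin with *Gapdh*, glyceraldehyde 3-phosphate dehydrogenase. At 2 weeks it had 3076 normalized counts in BRAF and 3455 and 2495 in BRAF/PI3K tumors. It had 5034, 1803 and 3761 normalized counts in BRAF and 3413, 4933, 5086 and 4869 in BRAF/PI3K tumors at 6 weeks, and 4248, 5042, 7524 and 6957 at 12 weeks. Both BRAF/PI3K libraries at 12 weeks exceeded every other library (log2 difference 12 minus 6 weeks 0.59 ± 0.25, SE, limma adjusted p = 0.901, exact permutation p = 0.08). Near copies hold much of the *Gapdh* signal: 42 rows for genes that share at least 50% of their stretches of 31 bases with *Gapdh* transcripts took 41.8% of the combined sum, so reads may be split. *Pgk1*, phosphoglycerate kinase, had 1065, 754 and 680 in BRAF and 834, 812, 767 and 751 in BRAF/PI3K tumors at 6 weeks, and 806, 1218, 1543 and 1339 at 12 weeks (log2 difference 0.57 ± 0.25, SE, limma adjusted p = 0.901, exact permutation p = 0.0133). At 2 weeks it had 1352 in the BRAF library, within the range of 12 weeks, and 1182 and 612 in the BRAF/PI3K libraries, and 54.7% of its stretches of 31 bases occur in other genes.

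*Pgam1*, phosphoglycerate mutase, had a lowest, median and highest value of 1032, 1355 and 1504 normalized counts in 6 BRAF libraries and 1353, 1656 and 2288 in 8 BRAF/PI3K libraries. By week these were 1339, then 1254, 1504 and 1032, then 1370 and 1503 in BRAF, and 1951 and 1650, then 1444, 1662, 1409 and 1353, then 2288 and 1870 in BRAF/PI3K tumors at 2, 6 and 12 weeks. All 8 BRAF/PI3K values exceeded the BRAF mean and 5 exceeded every BRAF value. The log2 difference was 0.34 ± 0.15 (SE, limma adjusted p = 0.711), with an exact permutation p of 0.0207 over all libraries and 0.0127 within weeks. *Pkm*, pyruvate kinase, had 1764, 2069 and 2209 in BRAF and 2093, 2455 and 5304 in BRAF/PI3K tumors, again with 8 of 8 above the BRAF mean and 5 above every BRAF value (log2 difference 0.41 ± 0.19, SE, limma adjusted p = 0.726, exact permutation p = 0.0190 over all libraries and 0.0206 within weeks). Without BRAF/PI3K replicate 1 at 12 weeks the pooled difference was 0.27 (exact permutation p = 0.0204). At 6 weeks all 4 BRAF/PI3K values of *Pkm* (2093, 2573, 2969 and 2336) lay above all 3 BRAF values (1778, 1764 and 1986), 1 of 4 genes of the 34 without overlap at that time (11.8% against 5.22% of all genes). At 2 weeks it had 2152 in the BRAF library and 2197 and 2152 in the BRAF/PI3K libraries. At 12 weeks the 2 BRAF/PI3K libraries had 5304 and 2723 and the 2 BRAF libraries 2209 and 2178. That log2 difference, 0.79 ± 0.31 (SE, limma adjusted p = 1.000), was 0.31 without BRAF/PI3K replicate 1. From 6 to 12 weeks *Pgam1* was 0.36 ± 0.16 higher (limma adjusted p = 0.901, exact permutation p = 0.0467) and *Pkm* 0.44 ± 0.20 higher (limma adjusted p = 0.901, exact permutation p = 0.02), the latter 0.19 without BRAF/PI3K replicate 1 at 12 weeks.

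*Eno1*, the ubiquitous enolase, had 908 normalized counts in BRAF tumors at 2 weeks, 679, 479 and 340 at 6 weeks and 1620 and 1066 at 12 weeks. In BRAF/PI3K tumors it had 1231 and 617 at 2 weeks, 642, 1141, 2081 and 2267 at 6 weeks and 1886 and 1847 at 12 weeks. At 6 weeks 3 of the 4 BRAF/PI3K values lay above all 3 BRAF values, and replicate 1, the library highest in endothelial markers, lay among them. The log2 difference was 1.504 ± 0.44 at 6 weeks (SE, limma adjusted p = 0.917, exact permutation p = 0.0857) and 0.82 ± 0.38 with weeks pooled (SE, limma adjusted p = 0.726, exact permutation p = 0.0763, or 0.0540 within weeks). With 2 near copies added to *Eno1*, chiefly *Eno1b*, which took 23.5% of the combined sum, these differences were 0.54 and 0.20. The difference from 6 to 12 weeks was 0.91 ± 0.39 (SE, limma adjusted p = 0.901, exact permutation p = 0.107) and 0.57 with the near copies. The neuronal *Eno2* ran from 29.8 to 136 and the muscle enolase *Eno3* from 23.5 to 175 in this table.

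**Figure D4:**
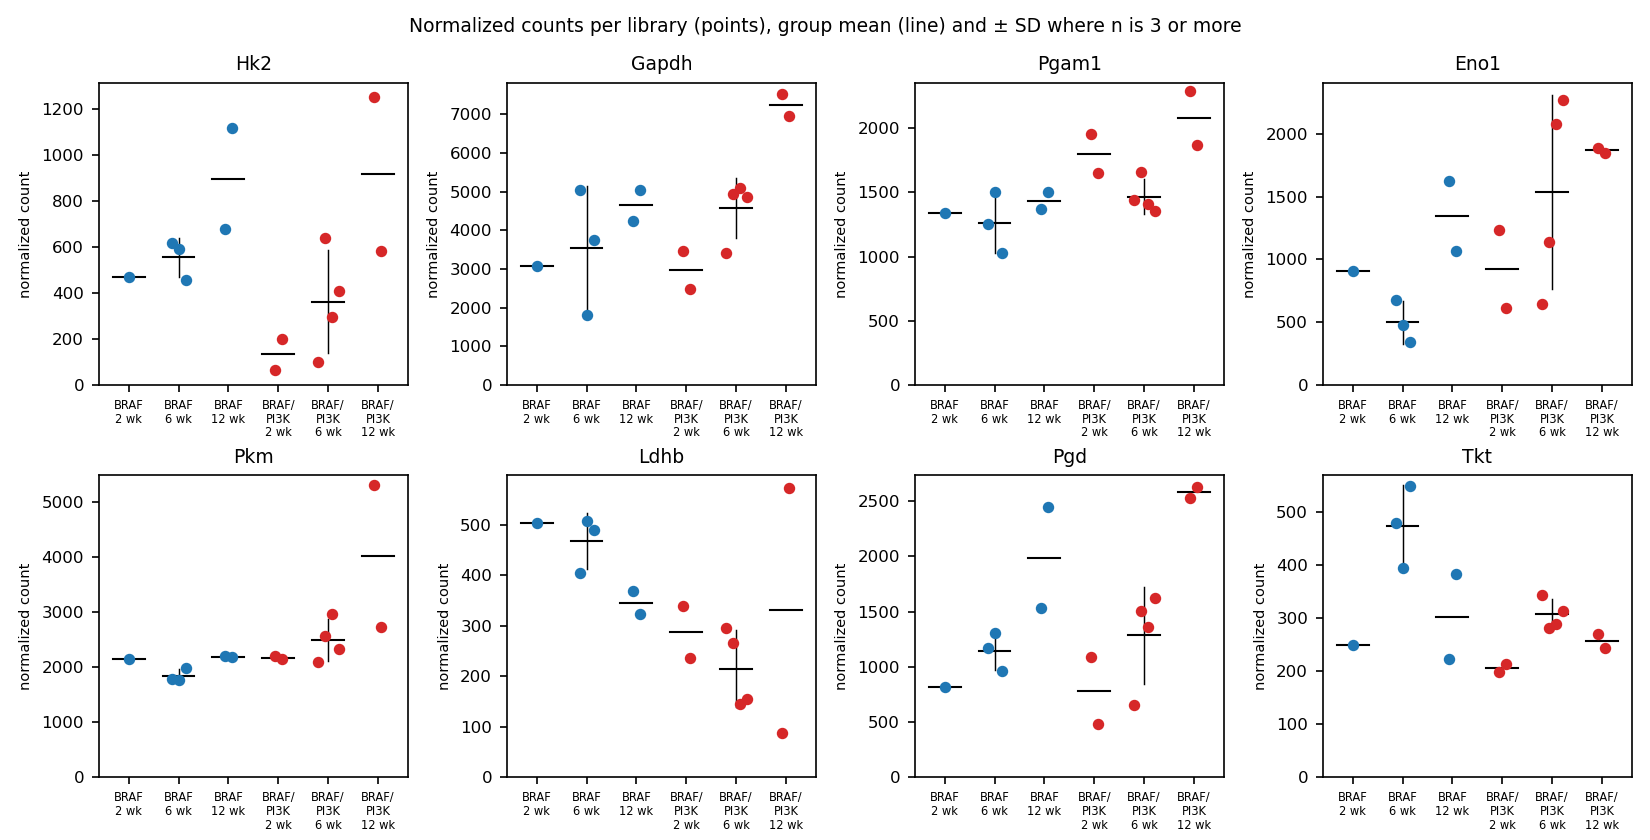
Normalized counts of 8 genes in each library (points) by genotype and week (1, 3 and 2 BRAF and 2, 4 and 2 BRAF/PI3K libraries), with the group mean (line) and SD where there are 3 or more libraries. *Gapdh* and *Pgd* were highest in the BRAF/PI3K libraries at 12 weeks, *Pkm* in 1 of them (5304), and *Ldhb* lay at 323 to 509 in BRAF tumors and at 87.1 to 574 in BRAF/PI3K tumors.

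*Ldha*, the lactate dehydrogenase subunit that favors lactate formation, had 6989 normalized counts in the BRAF library at 2 weeks and 4814 and 2216 in the BRAF/PI3K libraries. At 6 weeks it had 10740, 8360 and 5680 in BRAF and 3695, 11880, 9361 and 8058 in BRAF/PI3K tumors, and from 2 to 6 weeks it was 0.87 ± 0.39 (SE) higher on the log2 scale (limma adjusted p = 0.397, exact permutation p = 0.117). At 12 weeks it had 7228 and 13190 in BRAF and 13940 and 10970 in BRAF/PI3K tumors. Its 3 lowest values (2216, 3695 and 4814) were those of the libraries highest in endothelial markers. Without them the difference from 2 to 6 weeks was 0.18. No BRAF/PI3K library at 2 weeks is then included, so the 2 week level rests on the 1 BRAF library. The remaining BRAF/PI3K libraries at 6 and 12 weeks still enter the fit through the genotype term. *Ldhb*, the heart-type subunit, had a lowest, median and highest value of 323, 447 and 509 in 6 BRAF libraries and 87.1, 251 and 574 in 8 BRAF/PI3K libraries. At 2 weeks it had 503 in BRAF and 339 and 236 in BRAF/PI3K tumors, and at 12 weeks 368 and 323 and 87.1 and 574. Of the 8, 6 lay below every BRAF value and 1, replicate 2 at 12 weeks, above every one. The log2 difference was -0.90 ± 0.34 (SE, limma adjusted p = 0.627, exact permutation p = 0.0266 over all libraries and 0.0413 within weeks). It ran from -1.10 to -0.71 as each library was left out and was -1.11 without the 3 libraries highest in endothelial markers. At 6 weeks *Ldhb* did not overlap, with 405, 509 and 489 in BRAF and 295, 266, 146 and 155 in BRAF/PI3K tumors (log2 difference -1.18 ± 0.52, SE, limma adjusted p = 1.000, exact permutation p = 0.0571). *Ldhb* minus *Ldha* on the log2 scale ran from -5.35 to -3.53 in BRAF and from -7.31 to -3.23 in BRAF/PI3K libraries. A near copy, *Gm5514*, took 20.5% of the combined *Ldhb* sum, and with it added the pooled difference was -0.99.

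Of the monocarboxylate transporters, *Slc16a1* (MCT1) had 768 normalized counts in the BRAF library at 2 weeks and 275 and 169 in the BRAF/PI3K libraries. At 6 weeks it had 826, 643 and 672 in BRAF and 362, 1071, 594 and 426 in BRAF/PI3K tumors, and from 2 to 6 weeks it was 0.85 ± 0.37 (SE) higher on the log2 scale (limma adjusted p = 0.382, exact permutation p = 0.0667). At 12 weeks it had 461 and 563 in BRAF and 476 and 416 in BRAF/PI3K tumors. Without the 3 libraries highest in endothelial markers the log2 difference from 2 to 6 weeks was -0.10. The 2 week level then again rests on the 1 BRAF library, while later BRAF/PI3K libraries enter through the genotype term. *Slc16a3* (MCT4), the exporter of glycolytic cells, was at 308 in the BRAF library at 2 weeks and between 2.41 and 96.1 in the other 13.

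In the oxidative arm of the pentose phosphate pathway, *Pgd*, 6-phosphogluconate dehydrogenase, had 818 normalized counts in the BRAF library and 1086 and 480 in the BRAF/PI3K libraries at 2 weeks. At 6 weeks it had 1171, 1305 and 964 in BRAF and 652, 1507, 1359 and 1620 in BRAF/PI3K tumors, and at 12 weeks 1531, 2444, 2531 and 2627. The 3 highest values were at 12 weeks, and the fourth library of that time lay among the highest at 6 weeks. The difference from 6 to 12 weeks, 0.93 ± 0.29 on the log2 scale (SE, limma adjusted p = 0.861), had an exact permutation p of 0.00667, the smallest possible, and its unadjusted limma p-value stayed under 0.05 in all 14 fits that left out 1 library (0.00273 to 0.0217), but was 0.118 without both BRAF/PI3K libraries at 12 weeks (log2 difference 0.72). *G6pdx*, glucose 6-phosphate dehydrogenase, which commits glucose to the pathway, ran from 805 to 2122 and had its 2 lowest values in the BRAF/PI3K libraries at 2 weeks. Its log2 difference from 6 to 12 weeks was 0.36 ± 0.25 (SE). *Pgls*, the lactonase between these steps, ran from 8.48 to 219.

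In the non-oxidative arm *Tkt*, transketolase, had 248.7, 198 and 214 normalized counts at 2 weeks. At 6 weeks it had 480, 395 and 549 in BRAF and 344, 281, 289 and 313 in BRAF/PI3K tumors, so all 7 exceeded the values at 2 weeks and the 2 genotypes did not overlap. The log2 difference was 0.70 ± 0.24 from 2 to 6 weeks (SE, limma adjusted p = 0.281, exact permutation p = 0.0167, the smallest its 60 arrangements allow) and -0.62 ± 0.27 for BRAF/PI3K minus BRAF at 6 weeks (SE, limma adjusted p = 1.000, exact permutation p = 0.0286, the smallest its 35 arrangements allow). At 12 weeks BRAF tumors had 223 and 383 and BRAF/PI3K tumors 271 and 244, which overlap. *Taldo1*, transaldolase, ran from 81.9 to 237, and *Rpia* and *Rpe* spanned 1.56-fold and 1.98-fold from their lowest to their highest library.

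The PGC1α table asked whether loss of this coactivator of mitochondrial and metabolic genes altered 12 week BRAF tumors. The targeted *Ppargc1a* had 75.8, 170, 155, 200 and 561 normalized counts in PGC1α Het and 72.7, 38.0, 51.6 and 124 in PGC1α Null tumors. These overlap (log2 difference -1.51 ± 0.50, SE, limma adjusted p = 0.978), and reads outside the deleted part do not check the deletion. None of the 34 genes passed the adjusted test (lowest adjusted p = 0.998, limma), and neither did any of the 17424 genes tested (0%, with 667 at an unadjusted p-value under 0.05). Values were higher in Null tumors for 17 of the 34 (51.1% of all genes, median log2 difference -0.01). *Eno3*, the muscle enolase, was the 1 gene with an unadjusted p-value under 0.05 (2.94% against 3.83% of all genes) and the 1 gene without overlap (2.94% against 1.4%). It had 44.8, 14.9, 40.01, 44.0 and 33.5 normalized counts in Het and 62.2, 71.9, 84.4 and 63.0 in Null tumors. All 4 Null values lay above all 5 Het values, a log2 difference of 1.05 ± 0.39 (SE, limma adjusted p = 0.998, exact permutation p = 0.00794, the smallest its 126 arrangements allow). The count of 1 was 0 without Null replicate 3 and 2 without Het replicate 2 or 3.

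**Figure D5:**
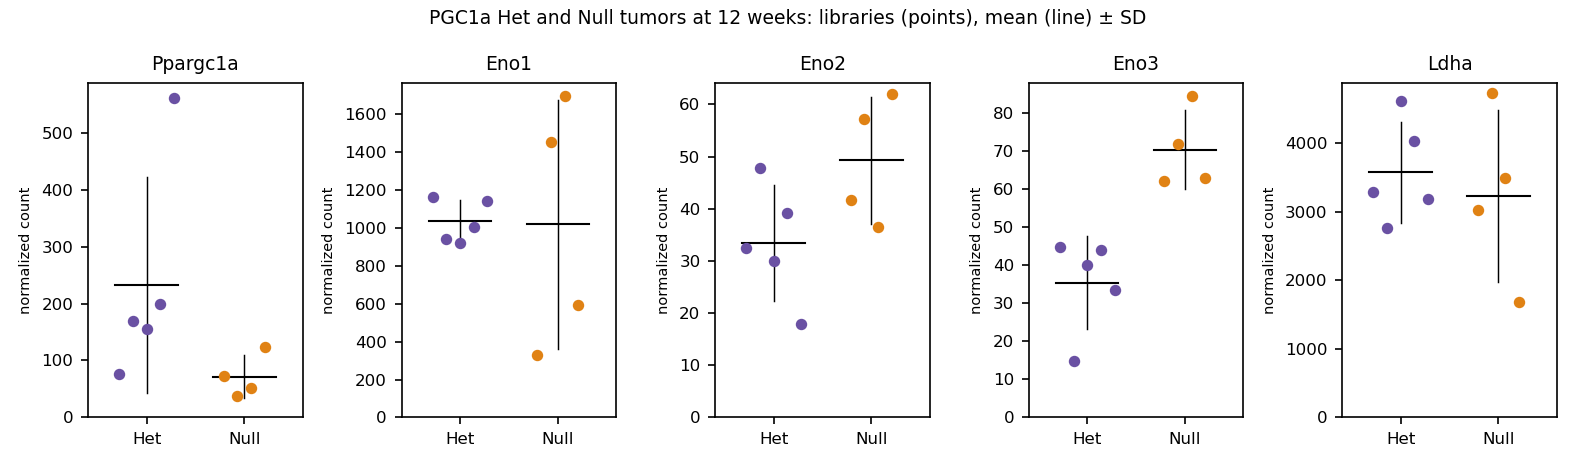
Normalized counts of *Ppargc1a*, the 3 enolases and *Ldha* in 5 PGC1α Het and 4 PGC1α Null libraries at 12 weeks (points), with mean (line) and SD. *Eno3* was 33.5 to 44.8 in 4 Het libraries and 14.9 in the fifth, below all Null libraries (62.2 to 84.4), while *Ppargc1a*, *Eno1*, *Eno2* and *Ldha* overlapped.

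The other enolases overlapped between Het and Null tumors. *Eno1* had 1161, 942, 923, 1005 and 1140 normalized counts in Het and 330, 1453, 1696 and 595 in Null tumors, with both the highest and the lowest value among the Null libraries. *Eno3* minus *Eno1* on the log2 scale was -5.89 to -4.48 in Het and -4.32 to -2.39 in Null tumors, again without overlap. *Ldha* (1679 to 4726 in Null, 2766 to 4614 in Het tumors), *Gapdh* (2488 to 5269 and 3271 to 5857) and *Pkm* (954 to 1814 and 1071 to 2030) had log2 differences of -0.22 ± 0.29, -0.13 ± 0.27 and -0.22 ± 0.26 (SE). Null replicate 4 had the lowest value of the 9 libraries for each of these 3. Endothelial markers summed to 606 to 936 in Het and 1593 to 2253 in Null tumors and club cell markers to 1682 to 3518 and 4293 to 18164, both without overlap. All 7 fibroblast markers tested (median log2 difference 1.51) and all 9 macrophage markers tested (median 0.99) were higher in Null tumors, 4 of each with an unadjusted p-value under 0.05 and none with an adjusted one, while all 10 AT2 markers were lower (median -0.205). Their part in the *Eno3* difference was not tested.

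Of 83 further genes of sugar metabolism and its regulators, 82 were in the tables and 69 (71 in the PGC1α table) were tested. None had an adjusted p-value under 0.05 in any of the 8 comparisons (limma), and with weeks pooled 2 had an unadjusted p-value under 0.05 with higher values in BRAF/PI3K tumors (2.9% against 3.46% of all genes) and 4 with lower ones (5.8% against 3.38%). As a description, the 3 with the lowest unadjusted p-value were *Pygl*, the liver glycogen phosphorylase, at 421 ± 177 (SD, n = 8) in BRAF/PI3K against 898 ± 260 (SD, n = 6) in BRAF tumors (log2 difference -1.15 ± 0.30, SE, limma adjusted p = 0.314), *Slc2a2* (GLUT2), with a log2 difference of -1.86 ± 0.61 (SE, limma adjusted p = 0.511), and *Bpgm*, bisphosphoglycerate mutase, with -0.57 ± 0.20 (SE, limma adjusted p = 0.576). *Bpgm* is best known from red blood cells, and all 7 erythroid and platelet markers tested were lower in the same comparison (median -0.89), whose part was not tested. In the PGC1α table they were *Pgm2l1* (0.75 ± 0.30), *Slc2a2* (0.96 ± 0.46) and *Pmm2* (-0.50 ± 0.24), all with a limma adjusted p of 0.998.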

How the data were processed

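RNA-seq libraries were grouped by genotype and week from the GEO labels. The authors deposited 2 tables of normalized counts, a relative signal made with Salmon estimates (mouse build GRCm38 in the submitters' processing notes) divided by DESeq2 size factors; the annotation was not given in the sources used here. Further deposited tables hold the authors' own comparisons (base mean, fold change and p-value) and were not used. At most 12.1% of values under 20 were whole steps (tolerance 0.001), so whole reads and depth were not recovered.

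Values were tested as log2(normalized count + 1), which understates differences of low genes, with limma 3.58.1 (R 4.3.3, trended variance) over genes with a mean of at least 10, two-sided, with Benjamini-Hochberg adjustment over all genes of a table. The pooled and PGC1α comparisons were fitted on genotype alone, the comparisons of weeks on week and genotype as additive terms, and the PI3Kα effect within and between weeks on a mean for each genotype and week. The procedure was tested on simulated data with known differences. Exact two-sided permutation of library labels (scipy 1.17.1) was run only for genes with an unadjusted limma p-value under 0.05 in the same comparison. It used the same libraries and its p-values were not adjusted, so they are no independent support. p-values rest on the spread between animals. In the pooled PI3Kα comparison, fitted on genotype alone, that spread also holds differences between weeks and virus titers. The 1 BRAF library at 2 weeks has no spread of its own.

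All 34 genes were described, with values in every library for those with an unadjusted p-value under 0.05 in the pooled, 6 week, week or PGC1α comparisons, plus, of the other pathway genes, the 3 with the lowest unadjusted p-value in the pooled and PGC1α comparisons. Genes and lists were chosen with earlier results of these data known. Near copies were rows sharing at least 50% of their stretches of 31 bases (GENCODE vM21) with a gene. Alternatives were another pseudocount, filter or scaling, sex or replicate terms, leaving out libraries, and adding near copies.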

Additional observations from a re-analysis of the deposited data

Results flagged for a closer look

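A library standing apart from the rest of its group, by Dixon's criterion for groups of 4 to 10, was seen in 10 of 170 groups of values examined, where chance gives about 1 in 20. The ratio given is the gap to the nearest library over the whole range of the group, both on the log2(normalized count + 1) scale. In BRAF/PI3K tumors at 6 weeks replicate 1, the library with the most endothelial marker counts, was low for *Slc2a1* (146 normalized counts against 594 to 770, ratio 0.844), *Pfkfb4* (125 against 412 to 521, ratio 0.835) and *Gapdh* (3413 against 4869 to 5086, ratio 0.891). Among all BRAF/PI3K libraries replicate 1 at 12 weeks was high for *Tpi1* (670 against 236 to 352, ratio 0.616) and *Pkm* (5304 against 2093 to 2969, ratio 0.624), and replicate 1 at 2 weeks was low for *Pfkm* (26.4 against 112 to 327, ratio 0.572). Among all BRAF libraries replicate 2 at 12 weeks was high for *Hk1* (926 against 350 to 482, ratio 0.67) and replicate 3 at 6 weeks low for *G6pdx* (906 against 1509 to 1978, ratio 0.653). PGC1α Het replicate 2 was low for *Eno3* (14.9 against 33.5 to 44.8, ratio 0.733), and PGC1α Null replicate 3 for *Slc2a3* (40.4 against 77.8 to 88.5, ratio 0.835).

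For 5 genes both BRAF/PI3K libraries lay below BRAF at 2 weeks and above both BRAF libraries at 12 weeks (14.7% of the 34 against 5.17% of all genes), and for 0 the reverse (4.61% of all genes). *Hk3* is 1 of the 5 and was tested only through the high value of BRAF/PI3K replicate 1 at 12 weeks. Without it there were 4 of 33 (12.1%). The log2 differences went from -1.33 to 0.95 for *Slc2a1* (2.28 apart), from -1.98 to 5.95 for *Hk3* (7.93), from -0.54 to 0.36 for *Gpi1* (0.902), from -0.10 to 0.70 for *Pfkl* (0.806) and from -0.67 to 0.54 for *Pgk1* (1.2). Without BRAF/PI3K replicate 1 the difference at 12 weeks was 0.09 for *Slc2a1*, 3.335 for *Hk3*, 0.13 for *Gpi1*, 0.46 for *Pfkl* and 0.43 for *Pgk1*. With 1 BRAF library at 2 weeks these differences between times were not tested.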

How the results depend on the processing

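None of the 34 genes had an adjusted p-value under 0.05 in any of 183 refits of the 8 comparisons. Of 662 alternative values of log2 differences named in the text, 661 kept their direction. *Slc16a1* from 2 to 6 weeks turned (-0.103 without the 3 libraries highest in endothelial markers, a setting added after seeing the data). That setting removes both BRAF/PI3K libraries at 2 weeks, so the 2 week level rests on 1 BRAF library. Counts of genes with an unadjusted p-value under 0.05 were less stable, and the causes were not tested. For the pooled PI3Kα effect the count of 4 was 1 with labelled sex as a factor, 1 with quantile normalization and 2 without both BRAF/PI3K libraries at 12 weeks. For the effect at 2 weeks 3 became 6 with sex. At 6 weeks 3 became 11 with robust moderation and array weights. At 12 weeks 2 became 4 with genes of any count and 1 with sex. For the effect at 12 against 6 weeks 0 became 1 with any count, sex, near copies added or a pseudocount of 4, and 2 with robust moderation and array weights or without the 3 libraries highest in endothelial markers. From 2 to 6 weeks 7 became 4 with sex and 4 without both BRAF/PI3K libraries at 12 weeks. From 6 to 12 weeks 8 became 5 with sex, 5 with robust moderation and array weights and 0 without both BRAF/PI3K libraries at 12 weeks, whose labelled sex goes against their Y-linked genes.

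Leaving out 1 library at a time, the counts ran from 1 to 4 for the pooled effect, 2 to 5 at 2 weeks, 1 to 4 at 6 weeks, 0 to 4 at 12 weeks, 0 to 3 for the effect at 12 against 6 weeks, 2 to 9 from 2 to 6 weeks, 2 to 8 from 6 to 12 weeks and 0 to 2 for PGC1α. Where 1 library was left in an arm, it was assumed to vary like the other groups. The highest counts above the main one came without either BRAF/PI3K library at 2 weeks (5 for the effect at 2 weeks), without BRAF/PI3K replicate 2 at 12 weeks (4 at 12 weeks, 3 for 12 against 6 weeks) and without BRAF/PI3K replicate 1 at 6 weeks (9 from 2 to 6 weeks). For 12 against 6 weeks the count was also 2 without BRAF/PI3K or BRAF replicate 1 at 6 weeks, and 1 without BRAF/PI3K or BRAF replicate 1 at 12 weeks or replicate 3 of either genotype at 6 weeks.

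Deviations of same-numbered replicates had correlations of -0.284, -0.033 and -0.0138 at 6 weeks, -0.146 at 12 weeks, and 0.211, -0.213, 0.145 and -0.467 for PGC1α. Only for PGC1α replicate 1 was the correlation highest with the library of the same number. With 2 libraries a side at 12 weeks both replicates give the same value. These few values did not show pairing by number and cannot exclude it. With a replicate block the counts were 1 at 6 weeks, 1 at 12 weeks, 1 for the effect at 12 against 6 weeks, 2 from 2 to 6 weeks, 4 from 6 to 12 weeks and 0 for PGC1α. Crossing the numbers at 12 weeks gave 1.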
